A study of Caenorhabditis elegans with 33 samples.

Results

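Glutathione S-transferases (gst genes) and UDP-glucuronosyltransferases (ugt genes) of the nematode Caenorhabditis elegans were followed across 4 strains and 3 feeding treatments. All genes whose symbol is gst- or ugt- and a number were taken, 109 of the 17907 genes in the deposited tables, of which 44 are gst genes and 65 ugt genes. Of these, 106 had enough reads to be tested, and gst-17, gst-18 and gst-25 did not, with at most 10, 10 and 11 reads in any library.

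Both families carry out the conjugation step of detoxification. Glutathione S-transferases attach the tripeptide glutathione to reactive electrophiles, among them products of lipid peroxidation, and UDP-glucuronosyltransferases attach a sugar from a UDP-sugar, which in nematodes is often glucose, to drugs, hormones and metabolites. The conjugates are then carried out of the cell by ABC transporters. In C. elegans many of these enzymes are made in the intestine, and part of them answer to the stress regulator SKN-1, for which gst-4 is a widely used reporter gene.

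Whole hermaphrodites were collected at adult day 2, having been kept at 16 °C as larvae and moved to 20 °C at the L4 stage. All groups received 5-fluorodeoxyuridine (FUdR), which blocks the production of progeny. The strains were eat-2(ad465);mxl-2(tm1516), the double mutant, eat-2(ad465), whose slow feeding makes it a model of dietary restriction, mxl-2(tm1516), which lacks the function of the partner of the Myc-like factor MML-1, and N2, the wild type. Each strain ate HT115(DE3) bacteria producing double-stranded RNA against daf-16 (a FOXO transcription factor) or pha-4 (a FOXA transcription factor), or carrying the empty vector L4440 (EV). Each of the 12 groups had 3 libraries, except the 3 eat-2 groups with 2 each, 33 in all. The replicate libraries of a group are separate samples in the labels, which do not say that they came from separate days.

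Library totals ran from 20199019 to 31483909 reads. Transcripts of mxl-2 were lower in mxl-2 EV (4.98 ± 0.471 CPM, read counts scaled to library size) than in N2 EV (62.3 ± 8.45 CPM, SD, n = 3 each; adjusted p = 2.1e-05, edgeR) and stood at 3.19 ± 0.429 CPM in the double mutant on EV. The pha-4 transcript goes against the labels in the double mutant, with 10.4 ± 2.54 CPM in the libraries labelled pha-4 RNAi and 3.83 ± 0.496 CPM in those labelled EV (SD, n = 3 each; log2 fold change 1.45 ± 0.37, SE, adjusted p = 0.0490, edgeR). The double-mutant groups are therefore called by their labels throughout, and which label is right was not tested. If the labels were exchanged, strain and feeding cannot be told apart where the libraries labelled EV are set against other strains on EV. Both feeding comparisons within the double mutant use the libraries labelled EV as reference, and an exchange would change what they compare. The daf-16 transcript was lower on daf-16 RNAi in the double mutant (43.9 ± 2.95 CPM, against 95.2 ± 14.3 CPM labelled EV; adjusted p = 0.0170, edgeR), and stood at 73.5 ± 10.7 CPM on daf-16 RNAi and 155 ± 17.7 CPM on EV in N2 (SD, n = 3 each; adjusted p = 0.141, edgeR). The pha-4 transcript in N2 was 5.07 ± 0.697 CPM on pha-4 RNAi and 14.01 ± 4.34 CPM on EV (adjusted p = 0.0919, edgeR). In eat-2 and mxl-2 neither target was called. The pha-4 transcript was 9.34 ± 5.99 CPM on pha-4 RNAi and 12.3 ± 2.50 CPM on EV in eat-2 (SD, n = 2 each; adjusted p = 0.663, edgeR) and 6.63 ± 0.914 and 11.8 ± 5.12 CPM in mxl-2 (SD, n = 3 each; adjusted p = 0.408, edgeR), with overlap in both strains. The daf-16 transcript was 51.01 ± 26.3 CPM on daf-16 RNAi and 80.2 ± 49.9 CPM on EV in eat-2, which overlap (SD, n = 2 each; adjusted p = 1, edgeR), and 99.2 ± 20.0 and 186 ± 23.8 CPM in mxl-2, which do not (SD, n = 3 each; adjusted p = 0.167, edgeR). The libraries of the double mutant carry the numbers 49 to 57 and all others the numbers 1 to 27, and a difference between these library sets cannot be told apart from the strain. Sperm transcripts of 31 msp genes differed between replicates, with mean log2 CPM from -2.95 to 5.59 over the libraries.

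By TPM, a level corrected for transcript length and library size, the gst family was dominated by few genes. The highest was gst-1, whose product is a pi-class enzyme, with a mean level of 475 TPM over the 33 libraries (301 to 871 TPM), 28.5% of the family's total. The next were gst-7 (255 TPM), gst-5 (126 TPM), gst-24 (85.6 TPM) and gst-13 (81.0 TPM), and the top 5 held 61.4% of the gst total. The ugt family was lower and more even. Its highest members were ugt-62 (32.8 TPM), ugt-22 (31.7 TPM), ugt-58 (29.9 TPM), ugt-47 and ugt-44 (20.4 TPM), which together held 33.5% of the ugt total. Mean levels under 1 TPM were found for 7 gst and 16 ugt genes. The spread of gst-24 was wide, 1.91 to 367 TPM, while that of gst-1 and gst-7 (135 to 553 TPM) stayed narrow beside it.

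Summed over the family, gst transcripts were most abundant in the double mutant. The 44 genes added up to 2970, 3625 and 3004 TPM in the double-mutant libraries labelled EV, 1418 and 1494 TPM in eat-2 EV, 1199, 1145 and 1370 TPM in mxl-2 EV, and 1162, 1104 and 1161 TPM in N2 EV. On daf-16 RNAi the sum was 3022, 2715 and 2587 TPM in the double mutant, against 912, 1117 and 946 TPM in N2. In the double mutant labelled pha-4 RNAi replicate 1 stood apart, with 2946 TPM beside 1660 and 1730 TPM. The other strains' libraries reached at most 1707 TPM (eat-2 daf-16 RNAi replicate 2), so all double-mutant libraries labelled EV or daf-16 RNAi lay above every library of the other strains, and 1 of the 3 labelled pha-4 RNAi did not. Summed as CPM, replicates 2 and 3 labelled pha-4 RNAi had 982 and 1104 CPM, both below eat-2 daf-16 RNAi replicate 2 (1251 CPM). The double-mutant libraries labelled EV or daf-16 RNAi, at 1724 to 2319 CPM, still lay above every library of the other strains. The ugt sum differed less. It was 531, 573 and 477 TPM in the double mutant labelled EV and 323, 267 and 314 TPM in N2 EV, but 545, 494 and 560 TPM in mxl-2 on daf-16 RNAi. Since these are shares of all RNA in whole animals, fewer cells of a type and less RNA per cell cannot be told apart.

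**Figure D1:**
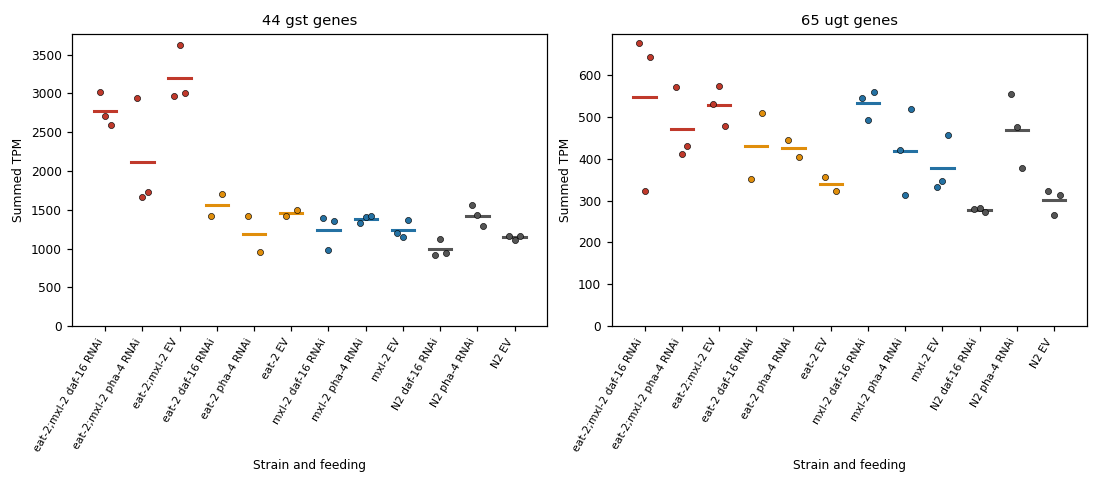
Summed TPM of the 44 gst genes (left) and the 65 ugt genes (right) in each of the 33 libraries (points), with the group mean as a bar, for each strain and feeding as labelled. The gst sums of the double mutant labelled EV (2970 to 3625 TPM) lie above those of N2 EV (1104 to 1162 TPM), while the ugt sums of several groups overlap.

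A few genes made up the gst difference. Between the double mutant labelled EV and N2 EV, the gst means added up to 3200 TPM and 1142 TPM, a difference of 2057 TPM. Of this, gst-5 gave 22.1% (495 against 40.1 TPM), gst-1 18.1% (796 against 424 TPM), gst-7 13.6% (497 against 217 TPM), gst-24 10.8% (227 against 4.80 TPM) and gst-10 9.90% (229 against 25.5 TPM). For the ugt family ugt-48 gave 20.7% (50.1 against 3.21 TPM) and ugt-62 20.4% (56.6 against 10.4 TPM) of the difference. On daf-16 RNAi a different member led the gst difference between the double mutant and N2, gst-33, with 455 TPM against 34.1 TPM or 23.6% of that difference.

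Over the 12 groups at once, 68 of the 106 tested members (64.2%) differed at an adjusted p under 0.05 in edgeR's quasi-likelihood test, where 46.3% of all 17354 tested genes did. They were 26 of 41 gst and 42 of 65 ugt genes. The 12 members with the smallest p were gst-29, gst-20, gst-5, ugt-25, ugt-9, gst-44, gst-33, gst-15, gst-6, ugt-18, ugt-63 and gst-14. Of the 68, 16 had their highest group mean in the double mutant labelled EV, 11 in the double mutant on daf-16 RNAi and 3 in the double mutant labelled pha-4 RNAi, whereas 21 had their lowest in N2 on daf-16 RNAi and 11 in N2 EV. How often each group was the highest or lowest over all genes called was not computed, so these counts have no background beside them. Between its highest and lowest group means gst-33 differed the most among these 12, with 336 CPM in the double mutant on daf-16 RNAi and 0.978 CPM in eat-2 on daf-16 RNAi.

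**Figure D2:**
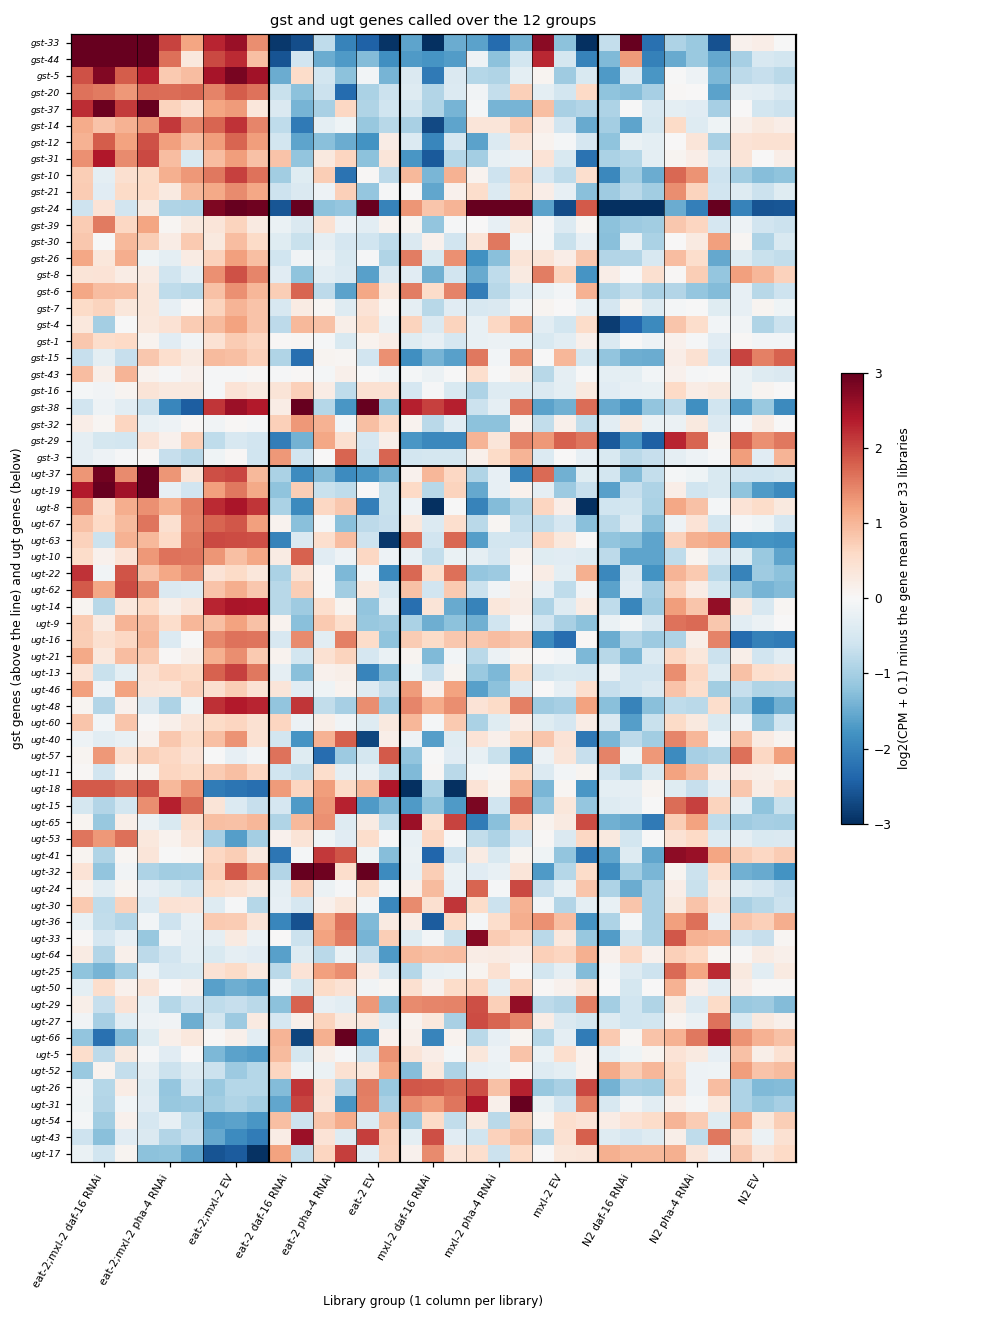
Level of the 68 gst and ugt genes that differed over the 12 groups (rows) in each of the 33 libraries (columns, grouped by strain and feeding as labelled), as log2(CPM + 0.1) minus the gene's mean over the libraries; red is above and blue below that mean, and colours end at 3 in either direction. Rows are sorted by the double-mutant mean within each family, so the upper rows of both blocks are red in the double mutant, and gst-24, gst-38 and ugt-32 change colour between replicates of eat-2.

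The clearest strain contrast among single members was that between the double mutant and the other strains. In 4 members, gst-5, gst-12, gst-14 and gst-20, every double-mutant library lay above every library of the other strains (9 against 24 libraries), which held for 0.876% of all tested genes. For gst-20 the double-mutant libraries ran from 77.8 to 112 CPM (median 98.6), and the 24 others from 6.33 to 51.995 CPM (median 20.9). All feedings of the double mutant were alike in range, with 98.3, 93.2 and 77.8 CPM on daf-16 RNAi, 103, 101 and 105 CPM labelled pha-4 RNAi, and 89.2, 112 and 98.6 CPM labelled EV.

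The level of gst-5 varied more with the feeding label. It was 177, 323 and 166 CPM in the double mutant on daf-16 RNAi, 236, 82.0 and 89.9 CPM labelled pha-4 RNAi and 263, 340 and 272 CPM labelled EV. In the other strains on EV it was 44.2 and 18 CPM in eat-2, 50.0, 22.3 and 34.1 CPM in mxl-2 and 27.2, 28.9 and 26.9 CPM in N2. The groups on EV did not overlap, and the difference was 3.40 ± 0.58 on the log2 scale against N2 (SE, adjusted p = 0.000434, edgeR), 3.23 ± 0.68 against eat-2 (adjusted p = 0.00354) and 3.04 ± 0.57 against mxl-2 (adjusted p = 0.00143). gst-14 was also highest in the double mutant, at a far lower level, with 2.11, 2.85 and 1.73 CPM in the double mutant labelled EV, 0.199 and 0.269 CPM in eat-2 EV, 0.657, 0.343 and 0.131 CPM in mxl-2 EV and 0.630, 0.706 and 0.655 CPM in N2 EV.

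Between the double mutant labelled EV and N2 EV, 34 of 106 members (32.1%) were called, 25 higher and 9 lower, where 12.1% of all tested genes were called, 4.96% higher and 7.15% lower. Of the 41 tested gst genes 12 were higher and 1 (gst-29) lower, and of the 65 ugt genes 13 were higher and 8 lower. The median log2 fold change of the members was 0.54 and that of all tested genes -0.05. Among the gst genes gst-10, which conjugates the lipid peroxidation product 4-hydroxynonenal, had 91.8, 128 and 95.3 CPM in the double mutant labelled EV and 14.96, 12.7 and 13.3 CPM in N2 EV, a log2 fold change of 2.94 ± 0.65 (SE, adjusted p = 0.00409, edgeR). The SKN-1 reporter gene gst-4 had 33.9, 40.8 and 31.9 CPM against 16.5, 9.37 and 11.2 CPM (1.52 ± 0.45, adjusted p = 0.0261). The abundant gst-1 and gst-7 changed less in proportion, by 0.66 ± 0.18 and 0.95 ± 0.22 (adjusted p = 0.0177 and 0.00502, edgeR). The zeta-class gene gst-42, whose product isomerises maleylacetoacetate in tyrosine breakdown, had 31.1, 42.9 and 37.6 CPM against 21.2, 18.4 and 19.2 CPM and was not called. With 1 library left out the count ran from 18 (without N2 EV replicate 3) to 30, and was 21, 19 and 22 without N2 EV replicate 1, N2 EV replicate 2 or replicate 2 of the double mutant labelled EV.

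The highest log2 fold changes of this comparison belonged to gst-24 (5.30 ± 1.42, SE), gst-38 (4.01 ± 1.09), ugt-16 (3.95 ± 0.71) and ugt-63 (3.84 ± 0.59). For ugt-63 the libraries were close to each other, 33.3, 32.9 and 32.3 CPM in the double mutant labelled EV and 2.29, 2.35 and 2.24 CPM in N2 EV (adjusted p = 0.000166, edgeR). ugt-63 was also called higher on pha-4 RNAi in N2 (2.86 ± 0.57), and gst-24, gst-38 and ugt-16 were not called there. gst-24 had 123, 142 and 132 CPM in the double mutant labelled EV against 4.31, 2.82 and 2.90 CPM in N2 EV (adjusted p = 0.0159, edgeR). These double-mutant libraries had 4181, 4994 and 3972 reads of gst-24. On pha-4 RNAi it had 161, 115 and 6694 reads in N2, 5689, 6085 and 4171 in mxl-2, and 219 and 231 in eat-2. Its highest level in the other strains was 229 CPM. The lowest were ugt-17 (-3.40 ± 0.50), ugt-18 (-2.77 ± 0.59), ugt-54 (-2.48 ± 0.49) and ugt-43 (-2.29 ± 0.74). For ugt-17 the double mutant labelled EV had 1.06, 1.14 and 0.798 CPM and N2 EV 12.2, 8.98 and 10.6 CPM (adjusted p = 8.85e-05, edgeR). ugt-50 had 4.99, 5.63 and 5.25 CPM against 18.05, 16.2 and 15.9 CPM. Exons of nhr-26 on the other strand cover part of ugt-50, so reads of both genes cannot be told apart if the counting did not use strand. ugt-22, which has been linked to the conjugation of benzimidazole drugs, had 53.5 to 63.05 CPM against 10.5 to 20.2 CPM (1.83 ± 0.61, adjusted p = 0.0490). Between these groups 0 of 31 msp genes, 0 of 10 oocyte and embryo markers and 0 of 8 hypodermis markers were called (edgeR), and the summed intestine markers were 3578 to 3808 TPM in the double mutant labelled EV and 3096 to 3769 TPM in N2 EV, with 2 of 10 markers called higher (act-5, pept-1) and 2 lower (elt-7, mtl-2). None of the marker genes was at 0 in these libraries. Their part in the result was not tested.

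**Figure D3:**
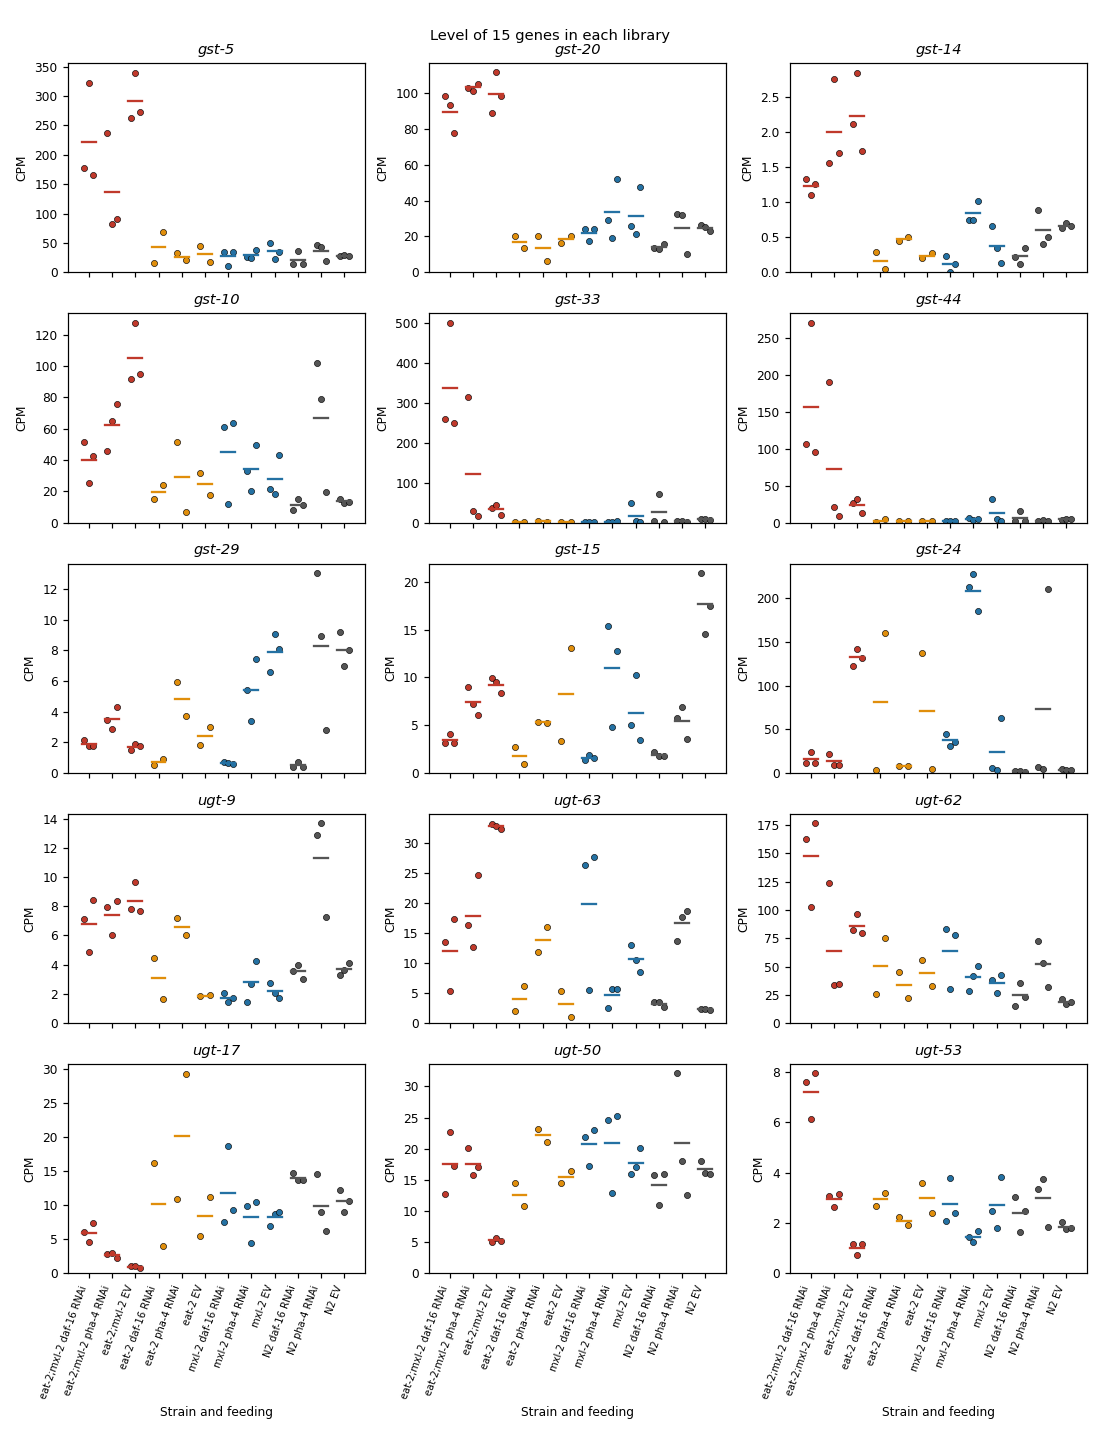
Level in CPM of 15 gst and ugt genes in each library (points), with the group mean as a bar, by strain and feeding as labelled; each panel has its own axis from 0. In gst-5 and gst-20 the double-mutant libraries lie above all others, gst-33 and gst-44 are highest in the double mutant on daf-16 RNAi, gst-29 and gst-15 are low on daf-16 RNAi, and ugt-17, ugt-50 and ugt-53 are lowest in the double mutant labelled EV.

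Against eat-2 EV the double mutant labelled EV had 30 of 106 members called, 19 higher and 11 lower, where 18.4% of all tested genes were called (9.54% higher, 8.89% lower). The median log2 fold change was 0.50 over the members and -0.08 over all tested genes. On log2 TPM the split was 30 higher of 39 called, with the median over all genes at 0.23. The highest fitted changes here were those of gst-33, ugt-37, ugt-67 and ugt-8. gst-33 had 36.0, 44.2 and 19.2 CPM in the double mutant labelled EV and 1.27 and 0.856 CPM in eat-2 EV (log2 fold change 4.97 ± 1.62, SE, adjusted p = 0.0362, edgeR), while ugt-67 was at least 6.70-fold higher, computed against 3 counts per library, since no eat-2 EV library had more, and its place in that order is not known. The lowest were ugt-18, ugt-43, ugt-17 and ugt-5. ugt-18 had 1.91, 1.76 and 1.70 CPM against 16.7 and 44.9 CPM (-4.10 ± 0.65, adjusted p = 0.000392, edgeR). Without eat-2 EV replicate 2 the count of called members was 9 and ugt-5 moved to -1.08, from a fit in which the lone eat-2 EV library is assumed to vary like the other groups; with both libraries ugt-5 was at -2.29. Markers of other tissues moved with this comparison: 15 of 31 msp genes and 4 of 8 hypodermis markers were higher in the double mutant labelled EV. The summed msp level was 4087 to 5673 TPM in the double mutant labelled EV and 13.3 to 166 TPM in eat-2 EV, and the hypodermis sum 1473 to 1553 TPM and 230 to 391.6 TPM. In eat-2 EV, 8 of the 31 msp genes had no read in at least 1 library. Their part in the result was not tested; with the msp level as a covariate 22 members were called, 12 of them higher.

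Against mxl-2 EV 25 of 106 members were called, 16 higher and 9 lower, where 7.86% of all tested genes were called (3.61% higher, 4.25% lower). The median log2 fold change was 0.49 over the members and 0.06 over all tested genes, and on log2 TPM 30 of 34 called were higher. The 3 comparisons share the double-mutant libraries labelled EV and are not independent. The genes with the highest fitted changes here were ugt-67, gst-5, ugt-14 and ugt-16, and those with the lowest ugt-17, ugt-43, gst-29 and ugt-54. Since no mxl-2 EV library had more than 3 reads of ugt-67, it was at least 5.31-fold higher, computed against 3 counts per library, and its place in that order is not known. gst-29 had 1.498, 1.85 and 1.73 CPM in the double mutant labelled EV and 6.57, 9.08 and 8.06 CPM in mxl-2 EV (log2 fold change -2.22 ± 0.41, SE, adjusted p = 0.00142, edgeR). Without 1 library the count ran from 15 to 19, with 16, 15 and 16 without mxl-2 EV replicate 2 or replicates 2 and 3 of the double mutant labelled EV in turn. Between these groups 0 of 31 msp genes, 0 of 10 oocyte and embryo markers and 0 of 8 hypodermis markers were called (edgeR), and 2 of 10 intestine markers were lower in the double mutant labelled EV (elt-7 and mtl-2). The summed msp level was 4087 to 5673 TPM in the double mutant labelled EV, while in mxl-2 EV replicate 3 had 56.6 TPM and replicates 1 and 2 had 10580 and 7619 TPM. Their part in the result was not tested.

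Few members were called in the single mutants on EV against N2 EV, which does not show that the differences were small. Replicates lay at least 4-fold apart in 18 of 106 members in eat-2 EV and in 24 in mxl-2 EV. Of all tested genes 20.2% and 16.6% did. In eat-2 EV 22 members had an unadjusted p under 0.05 (edgeR). In eat-2 EV 2 of 106 members (1.89%) were called, where 0.789% of all tested genes were (0.173% higher, 0.617% lower). They were ugt-13, with 2.03 and 3.20 CPM in eat-2 EV and 15.4, 11.7 and 11.2 CPM in N2 EV (log2 fold change -2.28 ± 0.52, SE, adjusted p = 0.0407, edgeR), and ugt-32. The 2 eat-2 EV libraries did not agree on ugt-32, with 27.1 and 0.220 CPM beside 0.332, 0.314 and 0.241 CPM in N2 EV, and without eat-2 EV replicate 1 its log2 fold change was -0.32. Both calls were lost in each fit without 1 of the N2 EV libraries. The call of ugt-13 held in 0 of the 5 fits without 1 library, where its log2 fold change ran from -2.57 to -1.89. In mxl-2 EV 0 of 106 members were called by edgeR and 1 by DESeq2, with 28 at an unadjusted p under 0.05, where 0.0288% of all tested genes were called (0.0115% higher, 0.0173% lower).

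Averaged over the 3 feedings, which does not depend on how the feedings within a strain were labelled, the double mutant and eat-2 differed in 46 of 106 members (43.4%), 32 higher and 14 lower, where 23% of all tested genes were called (11.2% higher, 11.8% lower). The median log2 fold change was 0.25 over the members and -0.06 over all tested genes. Of the 41 gst genes 18 were higher and 4 lower. The highest were gst-33, gst-44, ugt-37 and gst-37, and the lowest ugt-32, ugt-43, ugt-17 and gst-38. gst-37 rests on few reads, with 0.930 ± 0.792 CPM in the double mutant and 0.0906 ± 0.108 CPM in eat-2 (SD, n = 9 and 6), which overlap. gst-33 was higher by 6.24 ± 0.99 (SE, adjusted p = 0.000118) and gst-44 by 4.80 ± 0.75 (adjusted p = 9.76e-05, edgeR) on the log2 scale. With the msp level as a covariate 40 were called, 21 of them higher, and on log2 TPM 36 of 41 were higher. The count was 30 when replicate 2 of eat-2 on pha-4 RNAi was left out. The log2 fold change of gst-38, -1.81 with all libraries, was -0.43 without eat-2 EV replicate 1 and -0.48 without eat-2 daf-16 RNAi replicate 2, and its call was lost in 10 of 15 fits without 1 library. That of ugt-32, -3.54 with all libraries, was -1.60 without either of these, and its call was lost in the first case. Between these strains 18 of 31 msp genes and 3 of 8 hypodermis markers were higher and 2 of 10 intestine markers lower in the double mutant, and their part in the result was not tested.

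On the same average eat-2 differed from N2 in 12 members, 9 higher and 3 lower, where 14.6% of all tested genes were called (5.41% higher, 9.24% lower), so the share of members (11.3%) lay near the background. The highest were ugt-32 (4.72 ± 0.73, SE), gst-38 (3.37 ± 0.65), ugt-10 (2.13 ± 0.46) and ugt-16 (1.52 ± 0.41), and those lower were gst-33 (-2.49 ± 0.84), ugt-64 (-1.14 ± 0.20) and ugt-13 (-1.03 ± 0.28). ugt-10 rests on few reads, with 0.334 ± 0.297 CPM in eat-2 and 0.0741 ± 0.0745 CPM in N2 (SD, n = 6 and 9). Without eat-2 EV replicate 1 or eat-2 daf-16 RNAi replicate 2, ugt-32 was at 2.79 and 2.78 and gst-38 at 1.99 and 2.04, and both calls held. The call of gst-33 was lost in 12 of 15 fits without 1 library, and its log2 fold change was -1.45 without N2 daf-16 RNAi replicate 2, which had 71.2 CPM. Of the genes named, ugt-64 was the one whose eat-2 and N2 libraries did not overlap. Between these strains 30 of 31 msp genes, 3 of 8 hypodermis markers (col-19, bli-1 and grd-3) and 1 of 10 intestine markers (ifb-2) were lower in eat-2, and their part in the result was not tested. Without N2 pha-4 RNAi replicate 3 the count was 19. mxl-2 differed from N2 in 16 members (15.1%), 10 higher and 6 lower, where 6.75% of all tested genes were called (2.63% higher, 4.13% lower). The highest were gst-24 (2.93 ± 0.74), gst-38 (2.47 ± 0.59), ugt-26 (2.06 ± 0.43) and ugt-29 (1.88 ± 0.38), and the lowest ugt-66 (-1.78 ± 0.44), ugt-9 (-1.27 ± 0.21), ugt-41 (-1.24 ± 0.32) and ugt-12 (-1.10 ± 0.26). Among these, ugt-12 was the one whose mxl-2 and N2 libraries did not overlap. Without mxl-2 EV replicate 3, gst-24 was at 2.09, gst-38 at 1.82, ugt-26 at 1.46 and ugt-29 at 1.46. Without N2 pha-4 RNAi replicate 3, gst-24 was at 4.20. The calls of gst-24 and gst-38 were each lost in 1 of 18 fits without 1 library. gst-4 and gst-6 were called higher both in eat-2 (1.17 ± 0.28 and 1.17 ± 0.26) and in mxl-2 (1.12 ± 0.26 and 1.07 ± 0.24); the comparisons share the N2 libraries. Between mxl-2 and N2 1 of 10 intestine markers was higher (act-5) and 1 lower (mtl-2), and their part in the result was not tested. The summed msp level ran from 34.6 to 10716 TPM over the mxl-2 libraries and from 877 to 7001 TPM over those of N2.

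**Figure D4:**
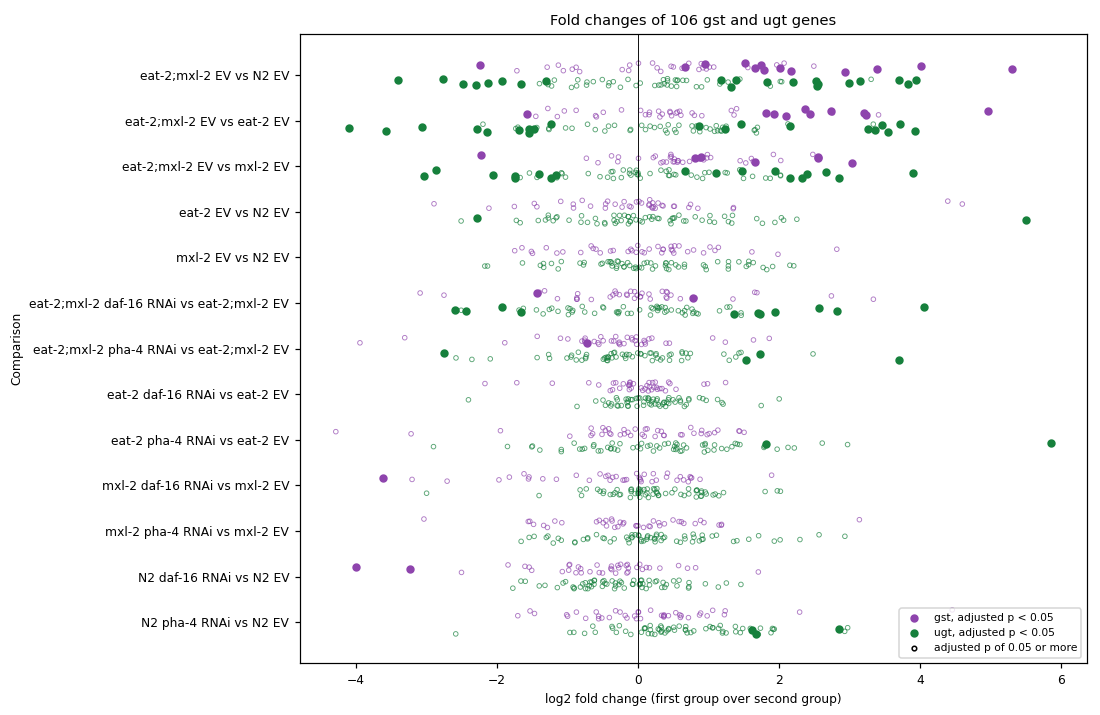
log2 fold change (first-named group over second) of each of the 106 tested genes in 13 comparisons, with gst genes in purple in the upper band and ugt genes in green in the lower band of each row; filled points have an adjusted p under 0.05. Filled points are frequent in the 3 comparisons of the double mutant labelled EV (34, 30 and 25 genes) and on daf-16 RNAi in the double mutant (13), and few elsewhere.

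Outside the double mutant few members were called on daf-16 RNAi, and in those strains the daf-16 transcript itself was not called lower. In N2 2 of 106 members fell, gst-29 and gst-15, where 0.248% of all tested genes were called (0.00576% higher, 0.242% lower). The median log2 fold change was -0.32 over the members and 0.01 over all tested genes. gst-29 had 0.370, 0.722 and 0.397 CPM on daf-16 RNAi and 9.19, 6.94 and 7.998 CPM on EV (log2 fold change -4.01 ± 0.46, SE, adjusted p = 8.40e-05, edgeR), and gst-15 had 2.15, 1.76 and 1.72 CPM against 20.9, 14.5 and 17.5 CPM (-3.23 ± 0.49, adjusted p = 0.00142). Both calls held without any 1 library. In mxl-2 gst-29 was the member called, where 0.127% of all tested genes were (0.0346% higher, 0.0922% lower). It had 0.709, 0.607 and 0.603 CPM on daf-16 RNAi against 6.57, 9.08 and 8.06 CPM on EV (-3.62 ± 0.45, adjusted p = 0.000344, edgeR), while gst-15 had 1.34, 1.86 and 1.57 CPM against 5.03, 10.2 and 3.49 CPM and was not called. Without mxl-2 EV replicate 3 there were 3 calls, and without mxl-2 daf-16 RNAi replicate 2 there were 5.

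In eat-2 on daf-16 RNAi 0 members were called by edgeR and by DESeq2, with 3 at an unadjusted p under 0.05. The values there were 0.538 and 0.917 CPM on daf-16 RNAi against 1.79 and 2.96 CPM on EV for gst-29, and 2.66 and 0.968 CPM against 3.34 and 13.1 CPM for gst-15, with no overlap between the groups in either gene. Of all tested genes 0.0115% were called.

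In the double mutant gst-29 was not called on daf-16 RNAi (adjusted p = 0.827, edgeR). It had 2.14, 1.78 and 1.74 CPM on daf-16 RNAi and 1.498, 1.85 and 1.73 CPM in the libraries labelled EV, which overlap, and whether this differs from the other strains was not tested. gst-15 was called lower, with 3.10, 4.08 and 3.09 CPM against 9.90, 9.50 and 8.34 CPM (log2 fold change -1.43 ± 0.46, SE, adjusted p = 0.0479, edgeR). In all, 13 members were called on daf-16 RNAi in the double mutant, 8 higher and 5 lower, where 9.55% of all tested genes were called (6.75% higher, 2.81% lower), so the share of members (12.3%) lay near the background. If the labels EV and pha-4 RNAi were exchanged, the reference here would be pha-4 RNAi and not EV. Those with the highest changes were ugt-18 (4.05 ± 0.62), ugt-53 (2.83 ± 0.35), ugt-17 (2.57 ± 0.48) and ugt-2 (1.95 ± 0.53), and those with the lowest ugt-14 (-2.60 ± 0.70), ugt-48 (-2.45 ± 0.68), ugt-13 (-1.93 ± 0.44) and ugt-25 (-1.67 ± 0.34). ugt-53 had 7.59, 6.13 and 7.95 CPM against 1.17, 0.711 and 1.16 CPM in the libraries labelled EV (adjusted p = 4.90e-05, edgeR). ugt-18 had 30.8, 30.8 and 27.7 CPM against 1.91, 1.76 and 1.70 CPM. On log2 TPM 6 of 18 called members were higher. The summed msp level was 407 to 573 TPM on daf-16 RNAi and 4087 to 5673 TPM labelled EV, the hypodermis sum 448 to 640.5 TPM and 1473 to 1553 TPM, and their part in the result was not tested. The count ran from 5 to 11 without 1 library, being 6, 7 and 6 without replicate 1, 2 or 3 labelled EV and 6 and 5 without daf-16 RNAi replicate 1 or 3.

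The highest levels of gst-33 and gst-44 were in the double mutant on daf-16 RNAi. gst-33 had 259, 498 and 249 CPM there, 315, 29.9 and 16.6 CPM in the double mutant labelled pha-4 RNAi, and 36.0, 44.2 and 19.2 CPM labelled EV. gst-44 had 106, 270 and 95.5 CPM, 190, 21.1 and 8.23 CPM, and 26.3, 31.5 and 12.5 CPM in the same libraries. Neither reached an adjusted p under 0.05 on daf-16 RNAi against the libraries labelled EV. Both genes were also high together in single libraries of other groups, with 71.2 and 16.2 CPM in N2 daf-16 RNAi replicate 2 and 48.5 and 32.2 CPM in mxl-2 EV replicate 1. Among the double-mutant libraries labelled pha-4 RNAi the highest and the lowest were at least 4-fold apart in 7 members (gst-44, gst-33, ugt-19, ugt-37, gst-37, ugt-2 and gst-31), and replicate 1 was the highest in all 7, where 0.732% of all tested genes were that far apart in this group.

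On pha-4 RNAi 3 members were called in N2, all higher, where 0.323% of all tested genes were called (0.277% higher, 0.0461% lower). Members had a median log2 fold change of 0.37 and all tested genes one of -0.01. ugt-63 had 13.6, 17.7 and 18.7 CPM on pha-4 RNAi and 2.29, 2.35 and 2.24 CPM on EV (log2 fold change 2.86 ± 0.57, SE, adjusted p = 0.0248, edgeR). ugt-25 had 19.5, 13.4 and 28.1 CPM against 7.23, 4.71 and 7.10 CPM (1.68 ± 0.33, adjusted p = 0.0248), and ugt-9 had 12.9, 13.7 and 7.24 CPM against 3.32, 3.61 and 4.14 CPM (1.61 ± 0.36, adjusted p = 0.0470). The groups did not overlap in any of these. There were 0 calls without any 1 of the 3 N2 EV libraries or without pha-4 RNAi replicate 1, and 1 call without pha-4 RNAi replicate 2. The summed msp level was 877 to 7001 TPM on pha-4 RNAi and 3292 to 3639 TPM on EV, and its part in the result was not tested.

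In eat-2 2 members were higher on pha-4 RNAi, where 1.17% of all tested genes were called (1.08% higher, 0.0922% lower). ugt-9 had 7.20 and 5.999 CPM on pha-4 RNAi and 1.83 and 1.91 CPM on EV (1.82 ± 0.45, SE, adjusted p = 0.0434, edgeR). ugt-15 had 0.710 and 1.51 CPM on pha-4 RNAi and 0 and 0.0245 CPM on EV, which is at least 11.5-fold higher, computed against 3 counts per library (adjusted p = 0.0304, edgeR). The summed msp level was 1499 TPM in both libraries on pha-4 RNAi and 13.3 to 166 TPM on EV, and its part in the result was not tested. There were 0, 1 and 0 calls without eat-2 EV replicate 2, eat-2 pha-4 RNAi replicate 1 or its replicate 2. In mxl-2 0 members were called by edgeR and 4 by DESeq2, with 28 at an unadjusted p under 0.05, where 0.887% of all tested genes were called (0.795% higher, 0.0922% lower), and there were 3, 1 and 3 calls without mxl-2 EV replicate 3 or pha-4 RNAi replicates 2 and 3 in turn.

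In the double mutant the libraries labelled pha-4 RNAi and EV differed in 5 members, where 1.49% of all tested genes were called (0.715% higher, 0.778% lower). Over the members the median log2 fold change was -0.19, and over all tested genes 0.01. ugt-18 (31.7, 16.6 and 21.8 CPM against 1.91, 1.76 and 1.70 CPM), ugt-50 (20.1, 15.7 and 17.1 CPM against 4.99, 5.63 and 5.25 CPM) and ugt-53 (3.09, 2.64 and 3.15 CPM against 1.17, 0.711 and 1.16 CPM) were higher in those labelled pha-4 RNAi. gst-1 (349.8, 254 and 299.6 CPM against 439, 544 and 507 CPM) and ugt-48 (10.8, 7.52 and 13.2 CPM against 66.5, 75.4 and 70.4 CPM) were lower. If the labels were exchanged, the directions of pha-4 RNAi against EV would be the reverse of these. ugt-18 and ugt-53 were also called higher, and ugt-48 lower, on daf-16 RNAi in this strain. Both comparisons share the libraries labelled EV and are not independent. On log2 TPM 3 of 9 called members were higher. The summed msp level was 790 to 1440 TPM labelled pha-4 RNAi and 4087 to 5673 TPM labelled EV, and its part in the result was not tested. There were 2 calls without 1 library and 3 without pha-4 RNAi replicate 1.

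The interaction of the mutations on EV asks whether the effect of mxl-2 loss on eat-2 animals differs from its effect on N2 animals. It was called in 5 of 106 members, where 1.27% of all tested genes were called (0.657% upwards, 0.617% downwards): ugt-13 (4.60 ± 0.69, SE), gst-14 (4.03 ± 0.92) and ugt-9 (2.93 ± 0.55) upwards, and ugt-17 (-2.69 ± 0.68) and ugt-53 (-2.09 ± 0.50) downwards, in log2 units. ugt-13 had its lowest values in the single mutants and its highest in the double mutant, with 28.2, 34.2 and 24.9 CPM in the double mutant labelled EV, 2.03 and 3.20 CPM in eat-2 EV, 5.60, 5.998 and 5.84 CPM in mxl-2 EV, and 15.4, 11.7 and 11.2 CPM in N2 EV. ugt-9 had 7.81, 9.67 and 7.68 CPM, 1.83 and 1.91 CPM, 2.76, 2.06 and 1.70 CPM, and 3.32, 3.61 and 4.14 CPM in the same order of strains. ugt-13 and ugt-9 were called in all 11 fits without 1 library. There were 2 calls without any one of the N2 EV or double-mutant libraries labelled EV or without mxl-2 EV replicate 3, and 3 without mxl-2 EV replicate 2. On log2 TPM 11 members were called, all upwards, with the median gene at 0.29. The double-mutant side rests on libraries labelled EV whose pha-4 transcript goes against that label. If the labels were exchanged, interaction and feeding cannot be told apart. Of the 5 members, ugt-9 was also called higher on pha-4 RNAi in N2 (1.61 ± 0.36) and in eat-2 (1.82 ± 0.45). The others were not called there.

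Many members lie side by side in the genome (build WBcel235, Ensembl annotation). Of the 109, all annotated as protein coding, 25 of the 44 gst genes are on chromosome II and 40 of the 65 ugt genes on chromosome V, and 52 members form 14 runs with no other protein-coding gene between them. Runs of neighbours can hold similar copies, and how the authors' counting treated reads that fit more than 1 copy was not tested.

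The run of 7 ugt genes on chromosome V (4892588 to 4911399) held ugt-11, ugt-9, ugt-10, ugt-67, ugt-8, ugt-14 and ugt-13. All 7 had positive log2 fold changes in the double mutant labelled EV against N2 EV (0.64 to 3.15), and 4 were called. Positive values were found in 70 of the 106 members, and 4.96% of all tested genes were called higher. Against eat-2 EV 6 were called higher and against mxl-2 EV 5, each count with ugt-67, for which eat-2 EV and mxl-2 EV had at most 3 reads per library. In these comparisons 19 and 16 of the 106 members were called higher, and 9.54% and 3.61% of all tested genes. Both positively called ugt genes of the interaction, ugt-13 and ugt-9, are in it. In the run of 9 gst genes on chromosome II (13608154 to 13630887), 7 of which were tested, gst-20, gst-24 and gst-14 were called higher against N2 EV, while gst-15 (-0.93) and gst-19 (-1.72) were not called.

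Neighbours also went apart. In the run of 3 ugt genes on chromosome V from 12820260 to 12830114, ugt-16 was higher in the double mutant labelled EV than in N2 EV, with 6.67, 7.54 and 7.44 CPM against 0.398, 0.510 and 0.483 CPM, and ugt-18 next to it was lower, with 1.91, 1.76 and 1.70 CPM against 14.9, 9.96 and 11.9 CPM. gst-29 was the only one of 6 genes in the run gst-26, gst-27, gst-28, gst-29, gst-39 and gst-31 that was called there, and likewise the only one of them called on daf-16 RNAi in N2 and in mxl-2.

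**Figure D5:**
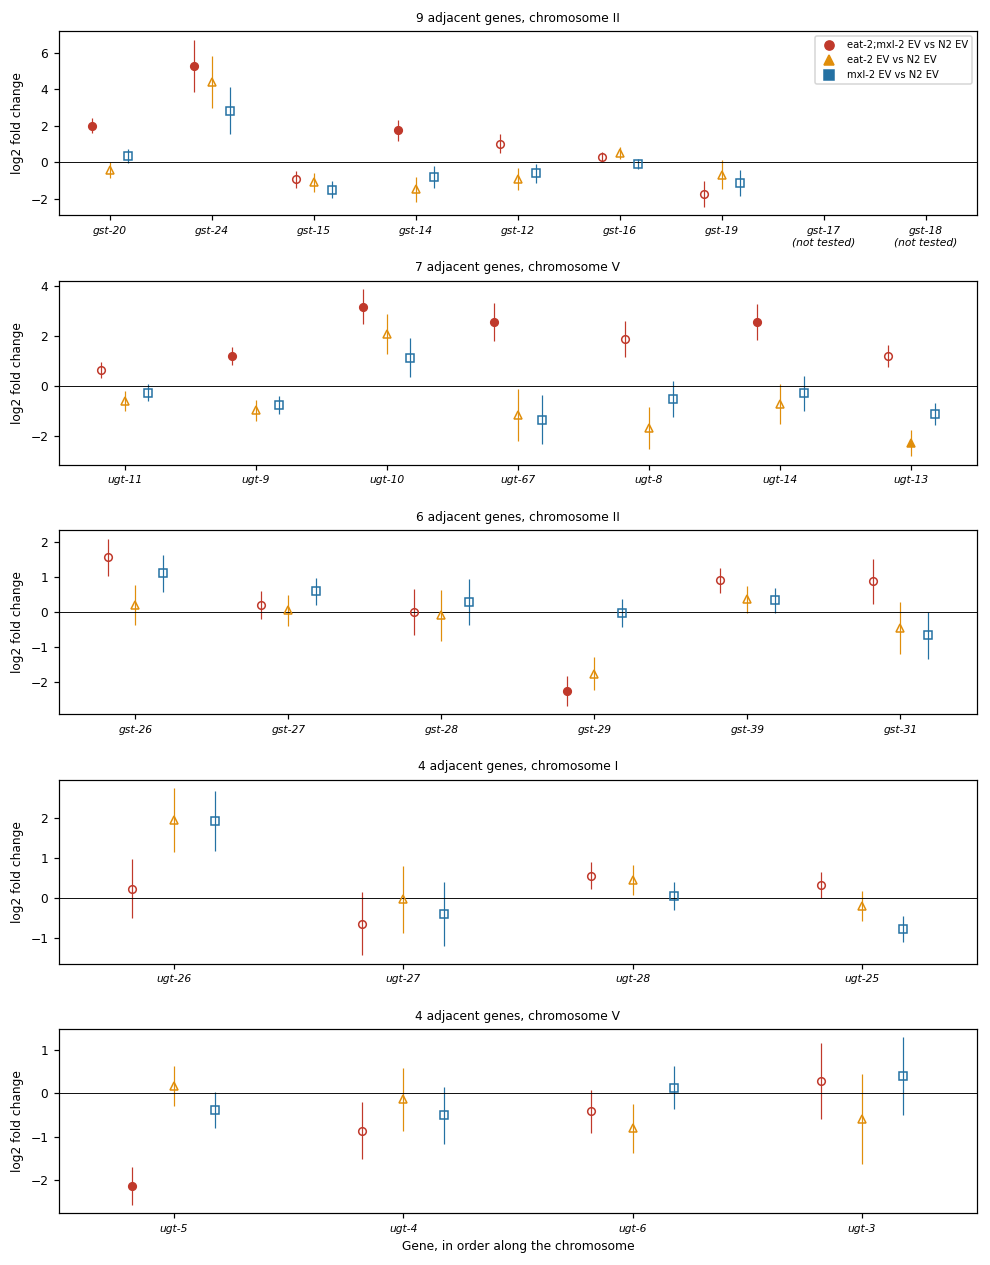
log2 fold change against N2 EV of the genes in the 5 longest runs of adjacent gst or ugt genes, in order along the chromosome, for the double mutant labelled EV (circles), eat-2 EV (triangles) and mxl-2 EV (squares); bars are standard errors and filled symbols have an adjusted p under 0.05. All 7 genes of the chromosome V run are above 0 in the double mutant, as are 70 of the 106 tested members, and gst-29 is the lowest of its run there.

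Replicates of the same group differed widely in some groups. In the double mutant labelled EV and in N2 EV 0 of 106 members lay 4-fold or more apart between replicates, where 0.0403% and 0.398% of all tested genes did. There were 18 in eat-2 EV, 27 in eat-2 daf-16 RNAi and 24 in mxl-2 EV, where 20.2%, 25.2% and 16.6% of all tested genes did. mxl-2 daf-16 RNAi had 18, mxl-2 pha-4 RNAi 15 and N2 pha-4 RNAi 15, beside 22.3%, 12.6% and 9.99% of all tested genes. In eat-2 the libraries fell into a fixed pattern. EV replicate 1 and daf-16 RNAi replicate 2 were both at least 4-fold above their partner in 7 members, gst-24, gst-38, ugt-26, ugt-29, ugt-31, ugt-32 and ugt-48, and both at least 4-fold below it in 6, gst-2, gst-23, gst-41, ugt-56, ugt-57 and ugt-59, with 0 members going opposite ways. For gst-24 the values were 160 CPM in daf-16 RNAi replicate 2 and 2.88 CPM in replicate 1, and 137 CPM in EV replicate 1 and 4.26 CPM in replicate 2. The summed oocyte and embryo markers followed the same libraries, with 8595 TPM in daf-16 RNAi replicate 2 and 920 TPM in replicate 1, and 7309 TPM in EV replicate 1 and 995 TPM in replicate 2. So did the TMM scaling factors, at 0.854 and 1.56 on daf-16 RNAi and 0.862 and 1.46 on EV in the same order, and the part of either was not tested. Differences in both pairs of libraries at this size and in the same direction were found in 6.47% (above) and 10.6% (below) of all tested genes. The shares of the members were 6.60% and 5.66%. Of all tested genes, too, 0 went opposite ways. Without eat-2 EV replicate 1 and eat-2 daf-16 RNAi replicate 2 the double mutant labelled EV differed from eat-2 EV in 36 members and eat-2 from N2 over the feedings in 16. Without the other pair these counts were 16 and 30. In these fits eat-2 EV is 1 library, assumed to vary like the other groups.

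Of 3 genes of glutathione supply, 0 were called in the double mutant labelled EV against N2 EV, and gss-1 (glutathione synthetase) and gsr-1 (glutathione reductase) were higher than in eat-2 over the feedings, by 0.41 ± 0.14 and 0.60 ± 0.15 (SE, log2; adjusted p = 0.0345 and 0.00574, edgeR). In that comparison over the feedings 11.2% of all tested genes were higher. sqv-4, which makes UDP-glucuronate, was called in the test over the 12 groups but in none of the 17 contrasts. Of 5 omega and kappa class transferases, gsto-1 and gsto-3 were lower in the double mutant labelled EV, with 9.38 ± 0.837 and 9.58 ± 1.07 CPM against 26.1 ± 7.59 and 17.6 ± 1.94 CPM in N2 EV (SD, n = 3 each). Of all tested genes 7.15% were lower there.

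Of 23 ABC export pumps of the mrp and pgp families, 2 were higher in the double mutant labelled EV than in N2 EV, pgp-3 (61.5 ± 2.13 against 16.1 ± 0.385 CPM) and pgp-8 (16.5 ± 1.27 against 0.412 ± 0.363 CPM, SD, n = 3 each), and none was lower. Of all tested genes 4.96% were higher and 7.15% lower there. pgp-8 was also called higher in mxl-2 than in N2 over the feedings (log2 fold change 4.03 ± 0.92, SE). In eat-2 on pha-4 RNAi mrp-1, mrp-8 and pgp-10 were higher than on EV. Of 7 regulators of the detoxification response, 3 were lower and 0 higher in the double mutant labelled EV than in N2 EV: nhr-8, a nuclear receptor of the xenobiotic response (5.60 ± 0.917 against 18.9 ± 3.27 CPM), mdt-15, a Mediator subunit (91.1 ± 15.2 against 198 ± 28.3 CPM), and hlh-30, the TFEB homologue (46.5 ± 5.39 against 97.1 ± 19.7 CPM, SD, n = 3 each). skn-1, wdr-23, xrep-4 and elt-2 were not called there, and 7.15% of all tested genes were lower. On daf-16 RNAi in the double mutant nhr-8 was higher than in the libraries labelled EV, at 18.7 ± 4.35 CPM (SD, n = 3, adjusted p = 0.00249, edgeR). The other regulators were not called in that comparison.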

How the data were processed

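The members and gene lists were chosen with earlier results of these data known. The authors deposited whole-number read counts per gene and TPM values for 17907 genes and 33 libraries; the tables list genes whose highest count was at least 10. The submitters' processing notes name FastQC, Trimmomatic, STAR 2.4.2a, RSEM 1.2.23, featureCounts 1.4.6-p5 and build WBcel235; whether counting used strand is not given in the sources used here. Libraries were grouped by title. Counts were tested with edgeR 4.0.16 (R 4.3.3): TMM factors (0.782 to 1.56), filterByExpr (17354 genes kept), 1 quasi-likelihood fit with a mean for each of 12 groups, and Benjamini-Hochberg adjustment over all genes tested within a comparison (called under 0.05). 18 comparisons were made. CPM were divided by TMM factors; totals were 20199019 to 31483909 reads (median 27962315), and PCR copies count as reads, so depth covers counting error only. p-values measure the spread between these libraries, which may be technical. A group with at most 3 counts in each library is at the floor, and folds against it are bounds. Alternatives were DESeq2 1.42.0, limma 3.58.1 on log2(TPM + 0.5) of genes with at least 0.5 TPM in 2 libraries, RLE factors, no filter, replicate block, msp covariate, the 2 groups alone and leaving out libraries. The fitting code was tested on simulated data. Named are the 5 most abundant members per family, the 12 smallest p over all groups, up to 4 highest and 4 lowest called members per comparison, members with a known role, and members called in the interaction; gst-12, gst-19, ugt-50 and the members of the replicate patterns and gene runs beyond these were named after their values were seen. The 2 ugt genes annotated beyond these 65 were not analysed here.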

Additional observations from a re-analysis of the deposited data

Results flagged for a closer look

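In 5 members the effect of the mxl-2 mutation on EV differed between eat-2 and N2 animals by the interaction test of edgeR. The log2 effect in eat-2 animals minus that in N2 animals was 4.60 for ugt-13, 4.03 for gst-14, 2.93 for ugt-9, -2.69 for ugt-17 and -2.09 for ugt-53, with adjusted p of 0.000997, 0.0301, 0.00816, 0.0453 and 0.0351. For ugt-17 the effect was -3.06 in eat-2 and -0.37 in N2 animals, and for ugt-53 -1.55 and 0.54. The interaction calls of ugt-17, gst-14 and ugt-53 were lost in 10, 10 and 8 of 11 fits without 1 library. On log2 TPM all interaction calls were upwards, so ugt-17 and ugt-53 were not called downwards there. The double-mutant side of the test rests on the 3 libraries labelled EV, whose pha-4 transcript goes against their label. For ugt-53 these libraries had 1.17, 0.711 and 1.16 CPM, eat-2 EV 3.58 and 2.397 CPM, mxl-2 EV 2.50, 1.78 and 3.84 CPM and N2 EV 2.02, 1.76 and 1.79 CPM.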

How the results depend on the processing

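With a replicate block the calls were 62 over the 12 groups, 31, 27 and 22 for the double mutant labelled EV against N2, eat-2 and mxl-2, 0 for eat-2 EV, 1 for eat-2 pha-4 RNAi and 3 for the interaction; replicate numbers did not pair the libraries, since no comparison of 3 pairs had every correlation above 0.1. In eat-2 daf-16 RNAi against EV it was -0.921, and a crossed pairing, chosen after seeing the data, called 3 members (180 genes), against 0 as labelled. DESeq2 called 10 in eat-2 EV, 1 in mxl-2 EV, 21 for eat-2 over the feedings, 24 and 12 for daf-16 and pha-4 RNAi in the double mutant, 10 and 10 for pha-4 RNAi in N2 and eat-2, 4 and 4 for daf-16 and pha-4 RNAi in mxl-2, and 23 for the interaction. Fitting the 2 groups alone called 74 for the double mutant labelled EV against N2, 50 and 47 for daf-16 and pha-4 RNAi in it, 12 and 9 in N2, 0 for daf-16 RNAi in mxl-2 and 0 for pha-4 RNAi in eat-2. Except for the crossed pairing, counts under other settings or with libraries left out, here and above, are given without the share of all tested genes called. They do not set the members apart from other genes. The msp covariate gave 1 in eat-2 EV, 6 and 10 for pha-4 RNAi in N2 and the double mutant, and 2 and 4 for daf-16 and pha-4 RNAi in mxl-2. limma on TPM gave 9 for pha-4 RNAi in the double mutant, 1 in mxl-2 and 11 for the interaction; RLE factors and no filter each gave 1 for pha-4 RNAi in eat-2. Without eat-2 EV replicate 2 and daf-16 RNAi replicate 1, chosen after seeing the data, 16 were called for the double mutant labelled EV against eat-2 and 30 for eat-2 over the feedings. The median gene moved to 0.15, 0.23 and 0.31 on log2 TPM for the double mutant labelled EV against N2, eat-2 and mxl-2, so smaller changes there are relative to it. Leaving out 1 library gave 18 to 30, 9 to 24 and 15 to 19 for these, 0 to 2 for eat-2 EV, 8 to 19 for eat-2 and 30 to 50 for the double mutant over the feedings, 0 to 3 for pha-4 RNAi in N2, 1 to 5 and 0 to 3 for daf-16 and pha-4 RNAi in mxl-2, 0 to 2 for pha-4 RNAi in eat-2, 5 to 11 and 2 to 3 for daf-16 and pha-4 RNAi in the double mutant, and 2 to 6 for the interaction. Of 1188 recomputed values of named genes 993 kept direction and call, 194 lost the call and 1 reversed: ugt-32 in eat-2 EV without replicate 1, at -0.32 (6.58 without replicate 2). Where leaving out libraries leaves 1 in a group, that library is assumed to vary like the other groups. The causes were not tested. Low genes such as ugt-67 rest on few reads.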
